A study of Mus with 9 samples.

Results

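Adult hippocampal neurogenesis was read from 9 genes that mark its successive steps, Sox2, Nes, Mki67 and Eomes for neural progenitors and Neurod1, Sox11, Igfbpl1, Dcx and Calb2 for immature neurons. They were chosen by gene symbol, and all 9 were found among the 22206 probe sets (22662 unique symbols) of the array. Of these, 8 have a probe set that carries their symbol alone, while the probe set of Neurod1 is shared with its neighbour Cerkl, so its values belong to both genes. The samples were hippocampi, with 3 arrays for each of 3 groups. The methods give the SAMP8 mice as male and 16 weeks old, and describe acclimatization, treatment and testing after that. If 16 weeks was their age at the start, they were older at sampling. SAMR1 is the strain that ages normally and SAMP8 the senescence-prone strain, and both received vehicle for 30 days (saline in the records, water in the methods). The TG-treated SAMP8 group was given the plant alkaloid trigonelline (TG) orally for 30 days, at a dose of 5 mg/kg, and all mice then went through 8 days of water maze testing, during which TG was continued. SAMR1 and SAMP8 are different strains, so accelerated aging and strain background cannot be told apart here. A free-text field of the records speaks of a macrophage cell line, whereas their titles, sources and tissue name the mice and the hippocampus.

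In the subgranular zone of the dentate gyrus, radial glia-like stem cells give rise to dividing intermediate progenitors, which turn into neuroblasts and then into immature granule neurons. Each step switches on its own transcription factors and cytoskeletal proteins, and few of the new cells survive to become mature granule cells. The pool of dividing cells is known to shrink with age, which is why these genes are followed in models of cognitive aging.

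The values are the authors' group averages on the log2 scale, 1 per group and probe set, over the 3 arrays of the group. Values per array were not analysed here, so no spread between mice, error or test was computed, and a difference below is a difference of 2 averages whose order may not hold beyond the spread between mice. A difference was counted as called when it passed 1.5-fold (0.585 on the log2 scale), and 1.2-fold (0.263) is given as a lower limit. In whole hippocampus, fewer cells of a type and less RNA per cell cannot be told apart. The medians over all probe sets were close (SAMR1 6.09, SAMP8 6.04, TG-treated SAMP8 6.07). Both tables list identical SAMP8 averages, which puts the 3 groups on 1 scale. Of the 9 hippocampal neuron genes, 8 lay above the median signal of the array. Camk2a stood at 19.93 in all 3 groups, the highest value listed on the array, so it could show no difference upwards. The hippocampal factor Zbtb20 (its probe set also carries Mir568) was at 13.26, 13.51 and 12.86 in SAMR1, SAMP8 and TG-treated SAMP8, while Emx1, the 1 gene of the list below that median, was at 5.18, 5.02 and 5.01. Camk2a and Emx1 were picked out after their values were seen.

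The order of the groups differed from gene to gene, and 0 of the 9 genes passed 1.5-fold in any of the 3 comparisons. Between SAMP8 and SAMR1, the background was 5.00% of all probe sets higher and 6.08% lower past 1.5-fold. With TG, 4.48% of all probe sets were higher and 3.74% lower past that limit. Between TG-treated SAMP8 and SAMR1 the shares were 5.62% and 4.83%. A set of 9 genes is small against such shares, so a count of 0 does not set these genes apart from the rest of the array.

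**Figure D1:**
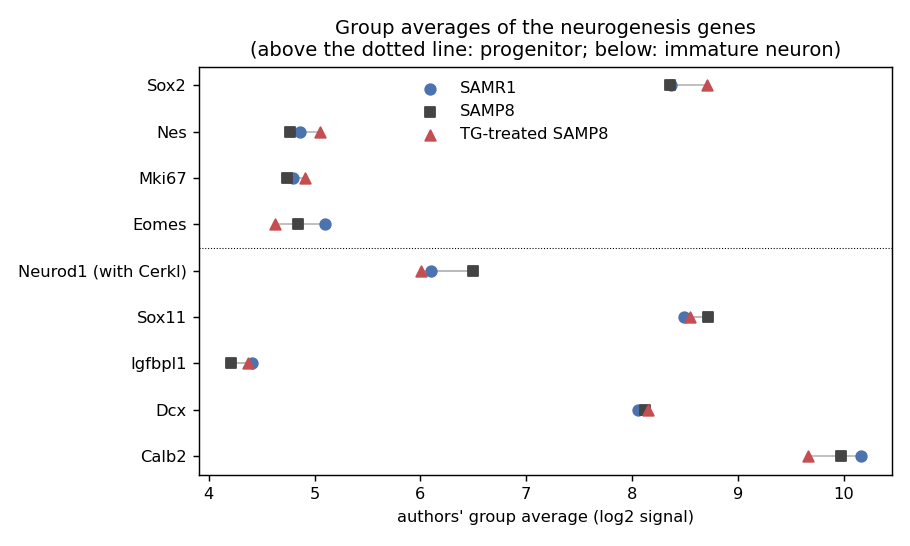
The authors' group averages (log2 signal, horizontal axis) of the 9 genes, with progenitor genes above the dotted line and immature neuron genes below it. Each symbol is 1 average over 3 arrays with no error computed; the groups lie within 0.5 of each other for every gene, and Calb2 and Eomes have the same order, SAMR1 highest and TG-treated SAMP8 lowest.

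Sox2, a transcription factor that keeps neural stem cells undifferentiated and is also made by astrocytes, lies on chromosome 3 from 34649995 to 34652461 (all positions are RefSeq's in GRCm38.p6, the assembly of the array's mm10 annotation). Sox2 averaged 8.37 in SAMR1 and 8.36 in SAMP8, against 8.71 after TG. The 2 vehicle groups were thus 0.01 apart in the deposited averages, but their difference (SAMP8 minus SAMR1) was -0.133 after the quantile normalization described next. The TG-treated group stood 0.35 above SAMP8 (1.27-fold). An absolute difference of at least this size was found for 26.9% of all probe sets. Of the 7 other astrocyte genes examined (Aqp4, Gja1, Aldh1l1, Slc1a2, Gjb6, Aldoc and Fgfr3), 3 were higher and 4 lower with TG, with a median of -0.03 (0.02 after quantile normalization, which sets the 3 columns of averages to 1 distribution). Of these 7 genes, Gjb6 alone was past 1.5-fold between the strains (8.72 in SAMR1 and 9.59 in SAMP8). Gfap and Slc1a3, which astrocytes also make, were past it too and are given below with the stem cell genes. The share of astrocytes in the Sox2 difference was not tested.

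Nes encodes nestin, an intermediate filament of neural stem cells that is also found in the vessel wall, and lies on chromosome 3 from 87971093 to 87980451. SAMR1 averaged 4.86, SAMP8 4.77 and TG-treated SAMP8 5.05. As for Sox2, the TG-treated group was the highest, with a difference of 0.28 from vehicle SAMP8. The strain difference of -0.09 turned to 0.037 after quantile normalization. Nestin's other source, the vessel wall, was examined beside it. With TG, all 7 endothelial genes examined (Pecam1, Cdh5, Cldn5, Tek, Flt1, Kdr and Emcn) had a lower average than in vehicle SAMP8. Their differences ran from -0.50 for Cdh5 to -0.14 for Cldn5, with a median of -0.35, and 0 of them passed 1.5-fold. Of the 8 pericyte and smooth muscle genes, 5 were lower and 3 higher in the same comparison, with a median of -0.25. In SAMP8 minus SAMR1 these vascular medians were 0.22 and 0.16, with 6 of the 7 endothelial genes higher in SAMP8 and 1 lower. Of all probe sets 49.5% were higher in SAMP8. Past 1.5-fold in that comparison were Flt1 (0.66, and 0.53 after quantile normalization), Acta2 (2.19), Rgs5 (1.29) and Tagln (-0.83), and with TG Acta2 (-2.17), Myh11 (-0.76) and Tagln (0.71). The part of vessels in the Nes difference was not tested.

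Mki67, the gene of the Ki-67 antigen carried by dividing cells, lies on chromosome 7 from 135689784 to 135716450. Its average was 4.80 in SAMR1, 4.74 in SAMP8 and 4.91 with TG. The 3 averages spanned 0.17, and the difference with TG, 0.17, was reached or passed by 56.6% of all probe sets. Quantile normalization made it 0.107 and turned the strain difference from -0.06 to 0.06.

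Eomes, the T-box factor TBR2 of intermediate progenitors, lies on chromosome 9 from 118478186 to 118486132. Its averages stepped down, with 5.10 in SAMR1, 4.84 in SAMP8 and 4.63 with TG. Each step was small, -0.26 between the strains, the direction of the other 3 progenitor genes, and -0.21 with TG, against their direction, and together they placed TG-treated SAMP8 0.47 below SAMR1 (1.39-fold). At least that absolute difference was found for 17.8% of probe sets in this comparison.

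Neurod1, a basic helix-loop-helix factor needed for the survival of newborn granule neurons, lies on chromosome 2 from 79452637 to 79456636, and its probe set also stands for Cerkl. The shared probe set was at 6.10 in SAMR1, 6.50 in SAMP8 and 6.01 with TG. Vehicle SAMP8 was the highest, 0.40 above SAMR1 (1.32-fold), and TG-treated SAMP8 stood 0.49 below it (1.40-fold) and close to SAMR1. Both differences are taken against the same SAMP8 average, so a high SAMP8 average by itself gives both.

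Sox11, a SOX factor of immature neurons, lies on chromosome 12 from 27334268 to 27342718. Its averages of 8.49, 8.72 and 8.55 in SAMR1, SAMP8 and TG-treated SAMP8 were highest in vehicle SAMP8, as those of Neurod1 were, within a narrower span. SAMP8 was 0.23 above SAMR1, and TG-treated SAMP8 was 0.17 below SAMP8. These differences shrank to 0.103 and -0.093 after quantile normalization.

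Igfbpl1, a secreted protein related to the insulin-like growth factor-binding proteins and found in neuroblasts, lies on chromosome 4 from 45809507 to 45826827. It was the dimmest of the 9 genes on the array, at 4.41 in SAMR1, 4.21 in SAMP8 and 4.37 with TG, and its mean lay among the 25% of probe sets with the weakest signal (below 4.40). Here SAMP8 was the lowest group, 0.20 below SAMR1 and 0.16 below TG-treated SAMP8. After quantile normalization SAMP8 minus SAMR1 was -0.067 and TG-treated SAMP8 minus SAMP8 0.087.

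Dcx encodes doublecortin, the microtubule-associated protein most used to stain newborn neurons, and lies on chromosome X from 143855842 to 143933396. Dcx averaged 8.05 in SAMR1, 8.12 in SAMP8 and 8.15 with TG. It varied the least of the 9 genes, with a span of 0.10 over the groups. A difference with TG of at least its 0.03 was found for 91.9% of all probe sets. After quantile normalization its differences were -0.033 between the strains and 0.077 with TG.

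Calb2 encodes calretinin, a calcium-binding protein that newborn granule neurons make for a short time and that mossy cells and a class of interneurons keep. It lies on chromosome 8 from 110142526 to 110168212 and was at 10.16 in SAMR1, 9.97 in SAMP8 and 9.66 with TG. The averages stepped down in the order SAMR1, SAMP8, TG-treated SAMP8, by 0.19 and then by 0.31, an order shared with Eomes. After quantile normalization the order was the same but the sizes were not: the steps were -0.35 and -0.25 for Calb2 and -0.143 and -0.28 for Eomes. The sum, -0.50 (1.41-fold), was the largest difference of any of the 9 genes in the 3 comparisons of the deposited averages, reached or passed in absolute size by 15.6% of all probe sets in TG-treated SAMP8 minus SAMR1. After quantile normalization it was -0.60 and passed 1.5-fold.

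The other cells that make calretinin were examined beside it. Of 5 mossy cell genes, 3 had a lower average with TG and 2 a higher one, and the median was -0.20. Among the lower ones were Drd2 (4.63 in SAMP8 and 3.67 with TG), whose signal lay among the dimmest 25% of probe sets, and Calcrl (6.79 and 6.22). Calcrl, inside 1.5-fold, was picked out after its values were seen. The 11 interneuron genes had a median of 0.08 with TG (0.02 after quantile normalization), with 6 higher and 5 lower. Past 1.5-fold were 3 of them upwards (4 after quantile normalization, with Cck at 0.585), where 4.48% of all probe sets were, and 0 downwards, where 3.74% were. The 3 upwards were Pvalb (6.82 in SAMP8 and 7.65 with TG), Vip (8.69 and 9.43) and Sst (11.31 and 12.00). Of the lower genes, 3 were past 1.2-fold, Gad1 (-0.35), Gad2 (-0.43) and Htr3a (-0.41), picked out after their values were seen. Past that limit upwards were 5 of the 11, and of all probe sets 19.6% were higher and 18.5% lower. Between the strains Vip was past 1.5-fold (7.23 in SAMR1, a difference of 1.46), as was Adarb2 after quantile normalization (-0.59). Cajal-Retzius cells, which carry both Eomes and calretinin, were followed by 7 further genes with a median of 0.00 with TG. Of these, 3 were higher with TG, 3 lower and 1 unchanged. Lhx5 stepped down as well (3.32, 3.10 and 2.79 in SAMR1, SAMP8 and TG-treated SAMP8). Ndnf, at 8.72, 9.27 and 8.69, had the largest fall of the list with TG (-0.58) but was highest in SAMP8. Trp73, a defining gene of that cell type, was at 4.18, 3.52 and 4.22, higher with TG by 0.70, and its strain difference of -0.66 was inside 1.5-fold after quantile normalization (-0.57). Both Lhx5 and Trp73 lay among the dimmest 25% of probe sets. The part of these cells in the Calb2 and Eomes differences was not tested.

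Progenitor and immature neuron genes were then set side by side. In SAMP8 minus SAMR1, all 4 progenitor genes had a lower average in SAMP8, from -0.26 for Eomes to -0.01 for Sox2, with a median of -0.08. Of the 5 immature neuron genes, 3 were higher and 2 lower, with a median of 0.07. The progenitor median less the immature neuron median was -0.145. It was -0.015 without Neurod1, whose probe set is shared with Cerkl, and 0 with Neurod1 among the progenitors. The median of all probe sets was 0.00. Of the 9 genes, 1 was past 1.2-fold (Neurod1, higher), against 20.4% of all probe sets higher and 20.4% lower. The directions of this comparison depend on the scaling: after quantile normalization Nes (0.037) and Mki67 (0.06) were higher in SAMP8 and Dcx (-0.033) lower, and the medians were -0.05 for progenitor and -0.03 for immature neuron genes. Dim probe sets as a whole lay lower in SAMP8 (median -0.08 in the dimmest 25%) and bright ones higher (0.12 in the brightest 25%), and 3 of the 4 progenitor genes but 1 of the 5 immature neuron genes lay below the median signal.

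**Figure D2:**
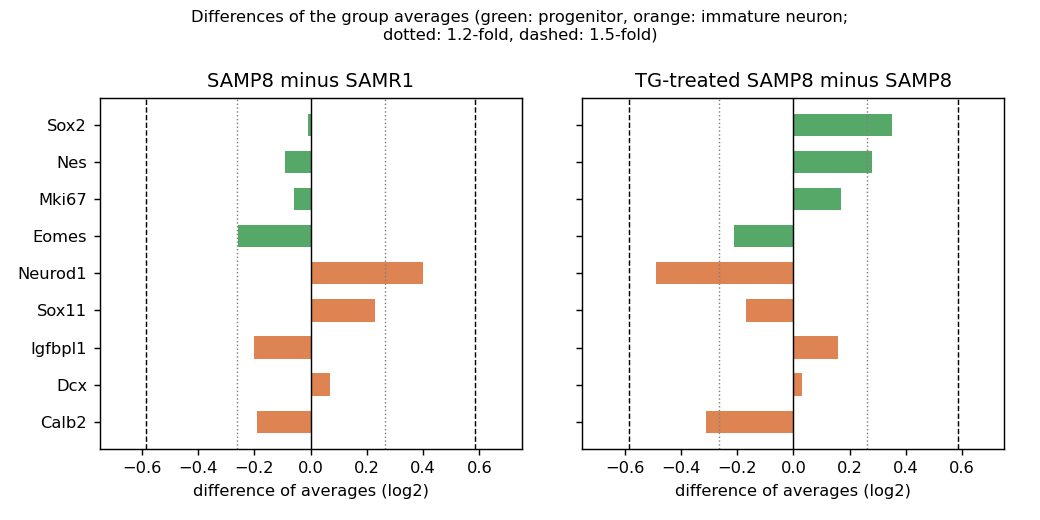
Differences of the authors' group averages (log2, horizontal axis) for SAMP8 minus SAMR1 and for TG-treated SAMP8 minus SAMP8, with progenitor genes in green and immature neuron genes in orange. All bars stay inside the dashed lines at 1.5-fold; with TG, Sox2 and Nes pass the dotted line at 1.2-fold upwards and Neurod1 and Calb2 downwards.

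With TG, Sox2, Nes and Mki67 had a higher average than in vehicle SAMP8 and Eomes a lower one, and the median of the 4 progenitor genes was 0.23. Neurod1, Sox11 and Calb2 were lower and Igfbpl1 and Dcx higher, with a median of -0.17 over the 5 immature neuron genes. The 2 medians were 0.40 apart, against a median of 0.01 over all probe sets. Past 1.2-fold were 2 genes upwards (Sox2 and Nes) and 2 downwards (Neurod1 and Calb2), where 19.6% of all probe sets were higher and 18.5% lower past that limit. For all 9 genes the direction was the same after centring or quantile normalization, which gave medians of 0.16 and -0.09, 0.25 apart. The distance lay between 0.24 and 0.59 under the alternatives tried, and its upper end sets Sox2, the 1 progenitor gene above the median signal, against 4 immature neuron genes. It is a distance between a few chosen genes and has no error across mice. In these averages, Dcx, Igfbpl1 and Eomes did not take part in it: Eomes sided with the lower genes, and Dcx and Igfbpl1 with the higher ones.

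Genes of different length moved differently with TG. The 25% of probe sets with the shortest genomic span had a median of 0.08 with TG and the 25% with the longest one of -0.09. Sox2, the highest member with TG, spans 2467 bases, Neurod1, the lowest, 4000 bases, and Dcx, the longest, 77555 bases, and the part of length in these differences was not tested.

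Compared with SAMR1, TG-treated SAMP8 had a higher Sox2 average by 0.34, and lower averages of Calb2 and Eomes. These 3 genes were past 1.2-fold, 1 upwards and 2 downwards, against 20.0% and 20.5% of all probe sets. The other 6 genes lay within 0.19 of SAMR1. The progenitor median was 0.15 and the immature neuron median -0.04 (0.01 after quantile normalization) in this comparison, which shares its averages with both of the others.

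Genes that share the steps of the lineage were taken from lists of 20 neural stem cell, 31 cell cycle, 27 neuroblast and outgrowth, 7 mature granule cell and 26 niche signal genes, and all were measured. Among the stem cell genes, Gfap (11.08 in SAMR1 and 12.03 in SAMP8) and Slc1a3 (11.14 and 11.76), both shared with astrocytes, were past 1.5-fold higher in SAMP8, and 0 were lower. Of all probe sets 5.00% were higher and 6.08% lower past that limit. After quantile normalization Slc1a3, at 0.50, was not past it, and Id3 was (0.58 before and 0.70 after). With TG, Nr2e1, an orphan nuclear receptor that maintains adult neural stem cells, was at 7.42 against 6.83 in SAMP8 and 6.55 in SAMR1, a gain of 0.59 over SAMP8. Rbpj, the DNA-binding partner of Notch, was at 8.57 with TG against 9.29. Nr2e1 and Rbpj were the 2 genes of this list past 1.5-fold with TG, where 4.48% of all probe sets were higher and 3.74% lower. The medians of this list were 0.13 between the strains (0.01 after quantile normalization) and 0.00 with TG.

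The cell cycle list gave no common direction with TG. Its median was 0.01 (-0.01 after quantile normalization), with 16 genes higher and 15 lower, and past 1.5-fold was Ccnd1 alone (8.24 with TG and 8.88 in SAMP8, on a probe set shared with Mir3962, and -0.58 after quantile normalization, just inside the limit). Past it with TG, 4.48% of all probe sets were higher and 3.74% lower. Between the strains 10 of the 31 genes were higher and 21 lower in SAMP8, with a median of -0.14 (-0.08 after quantile normalization). Of all probe sets 49.5% were higher, but of the dimmest 25% 35.9% and of the next 25% 38.0%, and 24 of these 31 genes, like Mki67, lay below the median signal, so the count is near that background. Past 1.5-fold were Ube2c, lower (3.26 in SAMP8 and 3.86 in SAMR1, though inside the limit after quantile normalization), and Ccne2, higher (6.65 and 5.90). Of all probe sets 6.08% were lower and 5.00% higher past it.

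The neuroblast and outgrowth list runs from proneural factors to genes that mature neurons also use. In SAMP8 minus SAMR1 their median was 0.20 (0.10 after quantile normalization), with 3 genes past 1.5-fold higher and 1 lower, where 5.00% and 6.08% of all probe sets were. Of these 27 genes 7 lay below the median signal, and brighter probe sets as a whole lay higher in SAMP8 (medians of 0.06 and 0.12 in the 2 brighter groups of 25%). The 3 were Nnat, an imprinted gene of developing neurons (10.13 in SAMR1 and 11.28 in SAMP8), Stmn1 (13.32 and 14.16) and Stmn2 (14.79 and 15.43), which encode stathmins that destabilize microtubules. Neurog2, the proneural factor that acts before Eomes and Neurod1, was lower in SAMP8 (4.76 against 5.45, and -0.58 after quantile normalization, just inside 1.5-fold, while Gap43 went from -0.54 to -0.68) and at 5.43 with TG, a gain of 0.67 over SAMP8. Stmn1 was higher again with TG, at 15.23, which put it 1.91 above SAMR1, while Dclk2, a doublecortin-like kinase, was at 9.74 with TG against 10.52. The median of the list with TG was 0.03 (0.07 after quantile normalization). Past 1.5-fold with TG were 2 genes upwards and 1 downwards, against 4.48% and 3.74% of all probe sets.

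**Figure D3:**
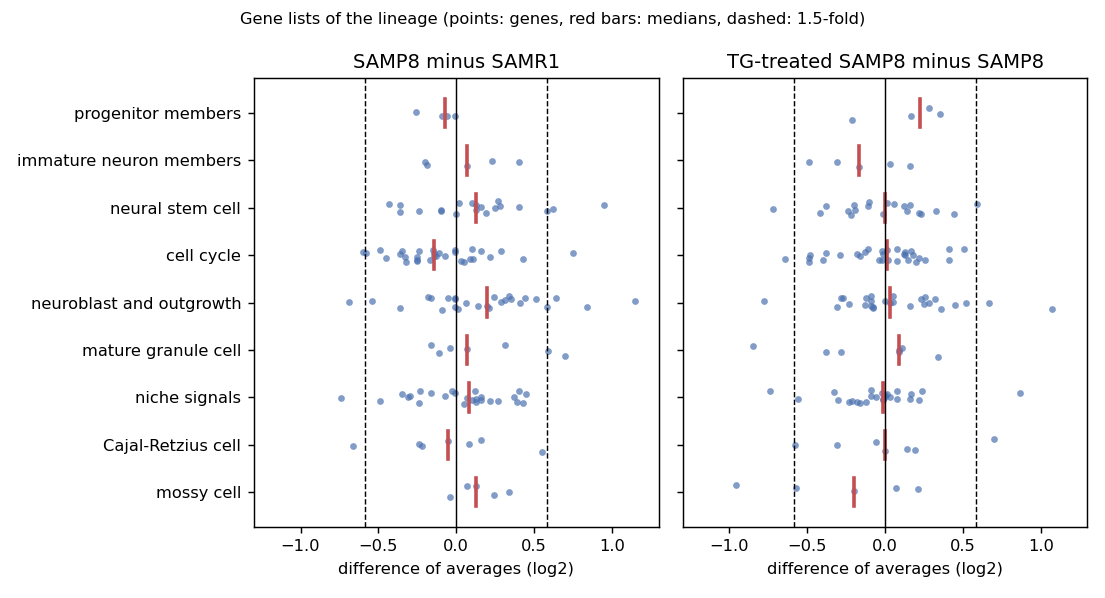
Differences of the authors' group averages (log2, horizontal axis) for each gene (points) of 9 lists, with the list median as a red bar and 1.5-fold as dashed lines. The members stay inside the dashed lines in both panels, and most genes of the other lists do too; Nnat lies farthest to the right between the strains and Stmn1 farthest to the right with TG.

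Among the 7 mature granule cell genes was Prox1, the homeobox factor that specifies granule cell identity. Prox1 stood at 11.26 in SAMR1, 11.85 in SAMP8 and 11.00 with TG, a difference of 0.59 between the strains and of -0.85 with TG. Calb1, which encodes calbindin and replaces calretinin as granule neurons mature, was at 10.28, 10.98 and 10.60. Both strain differences were under 1.5-fold after quantile normalization (0.46 and 0.53), and that of Prox1 with TG was not (-0.79). The other 5 genes (C1ql2, Dsp, Tdo2, Plk5 and Lct) lay inside 1.5-fold in both comparisons. Of these, C1ql2, Plk5 and Lct were lower in SAMP8 than in SAMR1 and higher with TG, against the direction of Prox1 and Calb1. Dsp had their direction, and Tdo2 was higher in both comparisons. In each comparison 4 of the 7 genes were higher and 3 lower. The list's medians were 0.07 and 0.09 (0.19 and 0.02 after quantile normalization).

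Of the niche signals, Vegfa, the growth factor of vessels, was at 11.19 in SAMR1, 10.70 in SAMP8 and 11.57 with TG, and Bdnf at 8.76, 9.16 and 8.42. These were the 2 genes of this list past 1.5-fold with TG, 1 in each direction, where 4.48% of all probe sets were higher and 3.74% lower. Shh, the ligand that keeps progenitors dividing, was at 6.90 in SAMR1 and 6.16 in SAMP8. It was the 1 gene of the list past 1.5-fold between the strains, where 5.00% of all probe sets were higher and 6.08% lower. The medians were 0.09 between the strains and -0.02 with TG (0.03 and -0.04 after quantile normalization, which also took the strain difference of Vegfa past 1.5-fold, to -0.63).

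**Figure D4:**
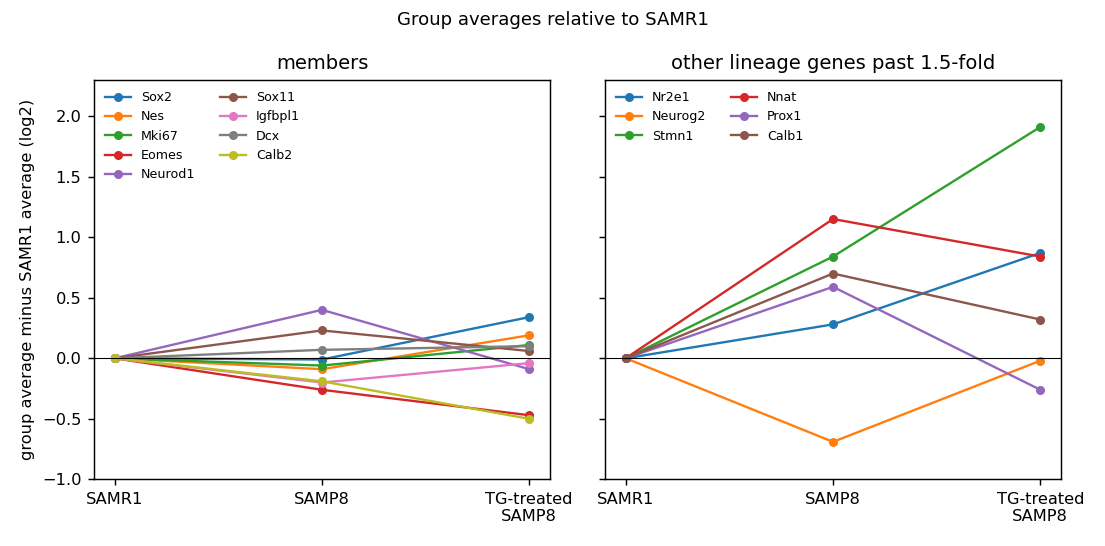
Group averages relative to the SAMR1 average (log2, vertical axis) of the 9 members (left) and of 6 other lineage genes past 1.5-fold, picked for display after their values were seen (right); lines join the averages of each gene. The members stay between -0.50 and 0.40, and Stmn1 reaches 1.91 in TG-treated SAMP8.

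The remaining marker lists are given by their medians, SAMP8 minus SAMR1 first and TG-treated SAMP8 minus SAMP8 second. They were -0.07 and 0.01 for 9 genes of olfactory neuroblasts (0.03 and -0.03 after quantile normalization), 0.21 and -0.14 for 7 genes of oligodendrocyte precursors, another dividing cell of the hippocampus, and -0.23 and 0.26 for 6 oligodendrocyte genes. For 7 microglia and macrophage genes they were 0.09 and -0.31, and for 9 hippocampal neuron genes 0.10 and -0.01 (0.02 and 0.01 between the strains after quantile normalization, and -0.07 with TG for the neurons). Tissue next to the hippocampus was followed by 9 genes of the meninges (0.00 and -0.15), 6 of the choroid plexus (0.46 and -0.10) and 11 of thalamus and habenula (0.33 and -0.04, the latter 0.03 after quantile normalization). Between the strains, the genes of these lists past 1.5-fold were Meis2 (0.76), Aif1 (1.51), P2ry12 (0.86), Foxc1 (0.89), Ttr (0.88), Kl (0.67), Tcf7l2 (0.76), Rgs16 (0.70) and Slc17a6 (0.66), higher in SAMP8, and Mobp (-0.80), Col1a2 (-0.64), Lum (-0.60) and Chrnb4 (-0.59), lower. Past that limit 5.00% of all probe sets were higher and 6.08% lower. After quantile normalization Slc17a6 (0.57), Col1a2 (-0.56) and Chrnb4 (-0.47) were inside the limit, and Cspg4 (0.60), Dcn (-0.65) and Slc13a4 (0.59) past it. With TG, Sox10 (0.69), Mag (0.71) and Ttr (0.72) were past it upwards and Foxc1 (-0.78), Dcn (-0.77), Slc22a6 (-0.66), Slc13a4 (-0.63), Kl (-0.79) and Zbtb20 (-0.65) downwards. Of these, Zbtb20 was just inside the limit after quantile normalization (-0.583). With TG 4.48% of all probe sets were higher past the limit and 3.74% lower. In the list of thalamus and habenula, Zic1 was at 10.91 in SAMR1, 11.47 in SAMP8 and 9.56 with TG, and Prkcd at 10.85, 11.03 and 9.53. These were the 2 genes of that list past 1.5-fold with TG, while 5 of the 11 were higher and 6 lower. Calretinin is also made in thalamus and habenula, and the part of neighbouring tissue in the Calb2 difference was not tested.

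For each member, the 3 genes with the nearest pattern were sought among the 218 genes of the other lists, by the Euclidean distance between the 3 averages after each gene was centred on its own mean. For Calb2 these were Lhx5 (distance 0.02), Gbx2 (0.02) and Bub1 (0.04), and for Eomes Gbx2 (0.06), Plk1 (0.06) and Bub1 (0.06). Nes lay nearest to Elavl4 (0.03), Fgfr3 (0.04) and Dkk1 (0.04), and Sox2 to Csf1r (0.07), Elavl4 (0.08) and Ccnb1 (0.09). Neurod1 had Kif11 (0.02), Wfs1 (0.04) and Fgfr1 (0.05) beside it, and Sox11 had Glipr1 (0.02), Ramp3 (0.03) and Slc32a1 (0.04). Nearest to Igfbpl1 were Rrm2 (0.04), Cdk1 (0.04) and Hes1 (0.04), to Mki67 Nhlh2 (0.02), Cnn1 (0.03) and Col1a1 (0.04), and to Dcx Notch1 (0.02), Elavl2 (0.03) and Slc17a7 (0.03). The patterns rest on 3 averages each, and the nearest genes came from many cell types.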

How the data were processed

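RNA from the hippocampus of 3 SAMR1, 3 SAMP8 and 3 TG-treated SAMP8 mice was hybridized to Clariom S Mouse arrays by the authors. The authors summarized the arrays by SST-RMA in the TAC software (4.0.1 in the series' text) and deposited, in 2 tables, group averages as log2 signal, rounded to 2 decimals. The other columns of these tables hold the authors' own fold changes and p-values and were not used. Per the labels there are 3 arrays per group, although the series' text speaks of duplicates. Differences of the averages were computed here, and probe sets of a gene were averaged, although each gene examined had 1. With 3 arrays behind an average its precision is limited, and without values per array no error or test was computed. Calls are differences past 1.5-fold, and the computation was tested on simulated data. Alternatives were 1.2-fold and 2-fold limits, centring, quantile normalization, leaving out the dimmest 25% of probe sets, and other groupings of the members. The members and the lists were chosen with earlier results of these data known. Genes of the lists were named when past 1.5-fold in SAMP8 minus SAMR1 or TG-treated SAMP8 minus SAMP8, at most 6 per list, or when nearest to a member. Genes named outside this rule were chosen after their values were seen (those said to be so, those at the ends of a list's range, and those past 1.5-fold after quantile normalization alone) or are given as list members without values. Sequences were not analysed here. Python 3.11.15, numpy 2.4.6, pandas 2.3.3 and matplotlib 3.10.9 were used.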

Additional observations from a re-analysis of the deposited data

How the results depend on the processing

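No paired analysis was possible because the tables used here hold 1 average per group, and for the same reason no replicate could be left out. With a limit of 1.2-fold in place of 1.5-fold, the members called were 1 in SAMP8 minus SAMR1, 4 in TG-treated SAMP8 minus SAMP8 and 3 in TG-treated SAMP8 minus SAMR1, and quantile normalization gave 1 in the last. The progenitor median less the immature neuron median was -0.15 in SAMP8 minus SAMR1. It became -0.015 after quantile normalization, -0.015 without Neurod1 and 0 with Neurod1 among the progenitors. With TG it was 0.40, and became 0.24 with Neurod1 among the progenitors, 0.30 without Calb2 or without Neurod1, 0.25 after quantile normalization and 0.59 for members above the median signal, where Sox2 alone stands for the progenitors. In TG-treated SAMP8 minus SAMR1 it went from 0.19 to 0.36 for the same members. Quantile normalization turned the direction of Nes (0.037), Mki67 (0.06) and Dcx (-0.033) between the strains and of Igfbpl1 (0.02) in TG-treated SAMP8 minus SAMR1. It also moved the strain differences of Sox2 to -0.133, Eomes to -0.143, Sox11 to 0.103, Igfbpl1 to -0.067 and Calb2 to -0.35. The other 26 alternatives of the counts and medians kept their value within the limits set (0.1 on the log2 scale for medians). The settings without Neurod1, those for members above the median signal and all those of TG-treated SAMP8 minus SAMR1 were chosen after seeing the data.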
